A study of Macaca mulatta with 7 samples.

Results

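Of the 18282 genes listed on 1 strand in a survey of rhesus macaque sperm RNA, 469 (2.57%) had no read on their own strand in any of 7 libraries. These genes were chosen by that count of 0 alone, so their lack of sense RNA, meaning reads from a gene's own strand, is the rule and not a result. What follows describes which families they belong to, how long they are, how many exons they have, and what was read on their opposite strand (antisense) and around them. The libraries hold total RNA from the sperm cells of 7 Macaca mulatta aged 5.67 to 5.92 years, 1 library per animal, of which 4 are labelled Control and 3 Maltreated. All 7 samples were passed through a PureSperm 40/80 density gradient and extracted with TRIzol, and the labels give no genotype or drug. By its title the series asks what early life stress leaves in the germline RNA of a primate.

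Mature sperm are transcriptionally silent, and the RNA they carry is mostly left from spermatogenesis, when spermatids make the proteins of the tail, the acrosome and the compacted chromatin. The testis is known for transcribing an unusually broad range of genes, many of them at low level, so a gene without any read is the exception. Olfactory and bitter taste receptors form large families of short genes that mostly have an uninterrupted coding exon, and some olfactory receptors are known to be transcribed in testis.

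Depth sets what a count of 0 can mean. The 7 libraries held 74261533 sense counts together, from 5316383 in Control 4 to 30715268 in Maltreated 1, and a count of 0 over all of them allows up to 3 counts, or 0.0404 CPM (counts per total of sense counts, on the usual CPM scale). In a single library the same 3 counts stand for 0.0977 CPM in Maltreated 1 and 0.564 CPM in Control 4. These limits cover counting error only. Between 1299 genes in Maltreated 1 and 6740 in Maltreated 2 had no sense count in a library, and leaving out Maltreated 1 would enlarge the set from 469 to 969 genes, since 500 genes had sense counts only there. All 10 sperm and spermatid marker genes were read in every library, at a summed 45368 to 97119 CPM. Leukocyte markers summed to 5.69 to 42.4 CPM in 5 libraries but to 677 CPM in Control 4 and 987 CPM in Maltreated 3. Epithelial and accessory gland markers summed to 4.69 to 279 CPM, and markers of testis somatic cells to 2.94 to 12.7 CPM.

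The rule's edge was thin. A further 231 genes (1.26%) had exactly 1 sense count over the 7 libraries, 132 of them in Maltreated 1. The 5 longest just outside the rule were SCN7A with 7154 exon bases, LRRC15, FGF5, C4orf40 and HS6ST2, each read once. Genes with 1 count had a median of 1601 exon bases and 3 exons, and 36 of them were olfactory receptors.

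Tissue-restricted gene families held a large part of the set. Of the genes without sense RNA, 199 belonged to 31 families defined by their symbols, which is 9.70% of the 2052 genes in those families. Among the 16230 genes outside the families the share was 1.66% (270 genes). At least 1 gene without sense RNA was found in 24 of the 31 families. The shares per family ran from 0 to 44.4%. Because short genes gather fewer reads, a family's share is set below against the share found over all genes of the same length classes. These classes take no account of exon number and include the family's own genes. Among all genes with 1 exon the share was 58.7% under 300 bases, 20.2% at 300 to 999 and 12.7% at 1000 to 1999. For families of genes with 1 exon the comparison by length alone therefore overstates the excess. The families, their patterns and these results were chosen or seen with the sense counts in view, so the shares are a description with no test. In RNA of a whole sperm sample, fewer cells of a type and less RNA per cell cannot be told apart.

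**Figure D1:**
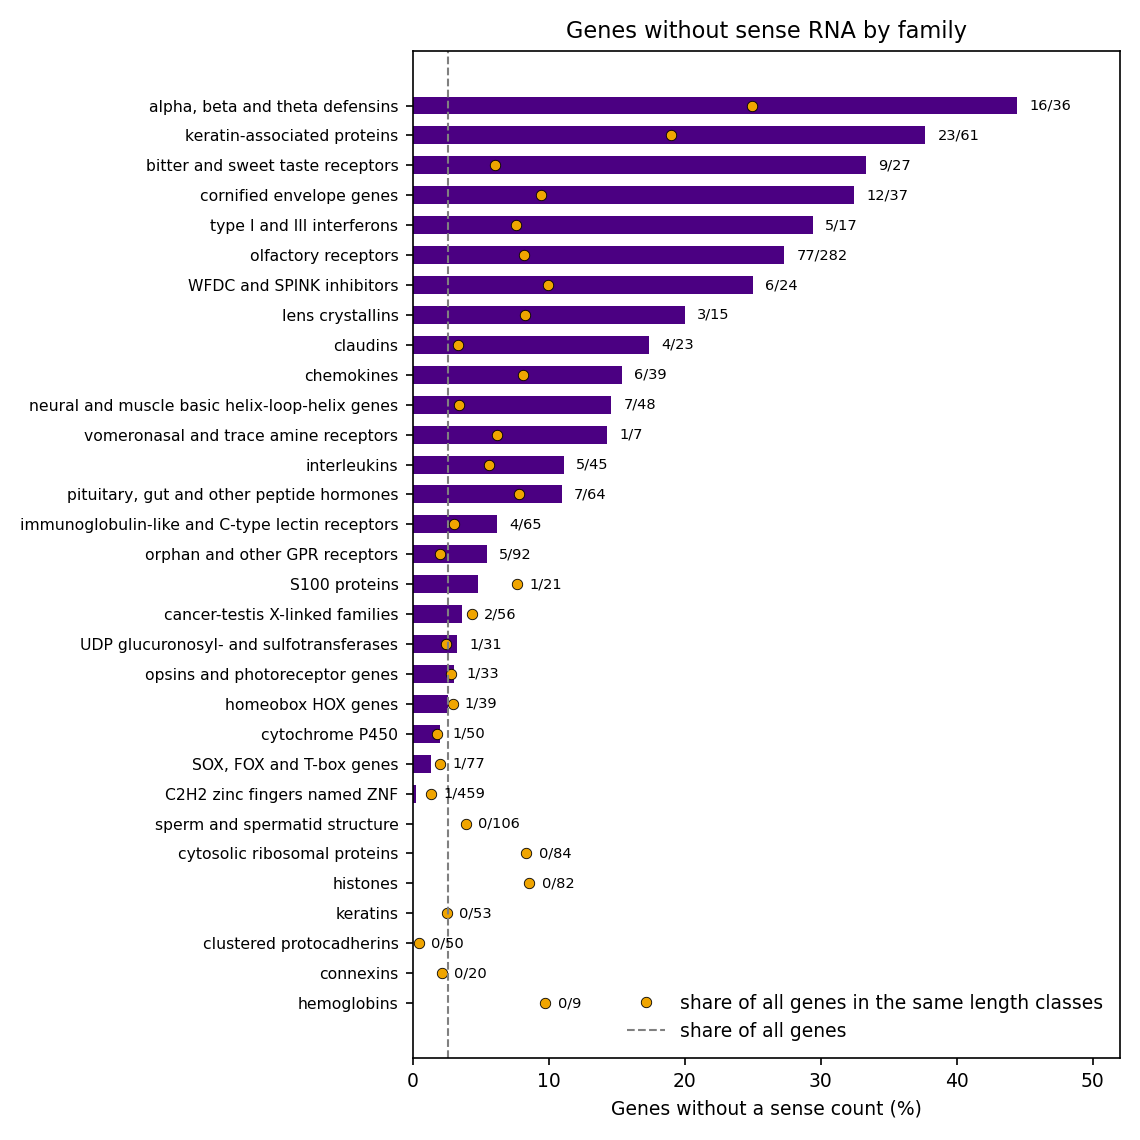
Share of genes without a sense count in each of the families defined by symbol. Bars give the percent of a family's genes, dots the percent over all genes of the same length classes, and the dashed line the 2.57% of all genes. Defensins (44.4%) and keratin-associated proteins (37.7%) have the longest bars, and 7 families have none.

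Sensory receptors were the largest group. Olfactory receptors, which detect odorants in the nose, gave 77 of 282 genes (27.3%, against 8.15% for genes of their length classes). Among all genes with 1 exon and 300 to 999 bases, many olfactory receptors included, the share was 20.2%. Of these 77, 76 had 1 exon, and the median length was 952 bases, close to the 945 bases of the 205 olfactory receptors that were read. Those 205 lay close to the limit too, with a median of 5 sense counts over all libraries and 139 of them at 10 or fewer. The longest olfactory receptors in the set were OR4C11 with 1433 bases, OR2A5 with 1418, OR2S2 with 1393 and OR2W5 with 1340. Bitter and sweet taste receptors gave 9 of 27 genes (33.3%, against 6.01%), all bitter receptors with 1 exon, among them TAS2R13, TAS2R38, the receptor behind tasting of phenylthiocarbamide, TAS2R5 and TAS2R3. The trace amine receptor TAAR8 was 1 of 7 vomeronasal and trace amine receptors in the files (14.3%, against 6.18%). GNAT3, the gustducin subunit that couples taste receptors, was the 1 gene without sense RNA among 33 opsin and photoreceptor genes (3.03%, against 2.80%).

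Secreted defence peptides were the family with the highest share. Defensins, small antimicrobial peptides of leukocytes and epithelia, gave 16 of 36 genes (44.4%, against 25%). DEFA4 and DEFA6 are alpha-defensins of neutrophils and of Paneth cells, and DEFB127 and DEFB103A are beta-defensins. The 16 had a median of 302 exon bases and the 20 that were read 446.5. WFDC and SPINK protease inhibitors gave 6 of 24 genes (25%, against 9.91%), including WFDC5, WFDC12, SPINK7 and SPINK13.

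Signalling proteins of immunity followed. Type I and III interferons gave 5 of 17 genes (29.4%, against 7.55%), among them IFNE and IFNK of epithelia and the antiviral IFNA8 and IFNA1. Interleukins gave 5 of 45 (11.1%, against 5.62%), including the T-cell cytokines IL2, IL3, IL21 and IL22. Chemokines gave 6 of 39 (15.4%, against 8.06%), including CXCL5, which attracts neutrophils, CXCL13, which attracts B cells, CCL28 and XCL2. Immunoglobulin-like and C-type lectin receptors gave 4 of 65 (6.15%, against 2.99%), namely the lectin CLEC4F and the immunoglobulin-like FCRL6, FCRLB and CD300LG. S100A12, a calcium-binding protein of neutrophils, was 1 of 21 S100 genes (4.76%, against 7.64%).

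Hormones and the structural proteins of skin, hair and lens made up a further group. Peptide hormones gave 7 of 64 genes (10.9%, against 7.76%), among them GCG, the precursor of glucagon, PTH, parathyroid hormone, NPPC, a natriuretic peptide, and INSL3. INSL3 is the Leydig cell hormone that guides descent of the testis, and its receptor RXFP2 also had no sense RNA. Keratin-associated proteins of the hair shaft gave 23 of 61 genes (37.7%, against 19.0%), 22 of them with 1 exon, with KRTAP4-3, KRTAP11-1, KRTAP27-1 and KRTAP5-4 the longest. The 23 had a median of 292 bases and the 38 that were read 729. Cornified envelope genes of the outer epidermis gave 12 of 37 (32.4%, against 9.40%), led in length by LCE1E, LCE1B, LCE5A and SPRR2D. The keratins, the filament proteins that these partners bind, had no gene in the set (0 of 53, against 2.49%, median 1901 bases). The lens gave the gamma-crystallins CRYGB, CRYGC and CRYGD, 3 of 15 crystallins, against 8.27% of genes of their length classes. Claudins, the tight junction proteins, gave 4 of 23 genes (17.4%, against 3.30%), which were CLDN14, CLDN15, CLDN18 and CLDN25.

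Developmental and metabolic regulators differed from family to family. Neural and muscle basic helix-loop-helix factors gave 7 of 48 genes (14.6%, against 3.42%), including NEUROD6, ATOH7 and ASCL2, which act in neurons, retina and trophoblast, and MSC. HOX genes gave only HOXA6 of 39 (2.56%, against 2.91%), and SOX, FOX and T-box genes only FOXI2 of 77 (1.30%, against 1.98%). The C2H2 zinc fingers named ZNF gave ZNF718 of 459 (0.218%, against 1.34%). GPR110, GPR50, GPR6 and GPR35 were among 5 of 92 receptors named GPR (5.43%, against 2.00%). CYP26A1, which breaks down retinoic acid, was 1 of 50 cytochrome P450 genes (2%, against 1.77%). SULT2B1, which sulfates cholesterol, was 1 of 31 glucuronosyl- and sulfotransferases (3.23%, against 2.40%). The X-linked cancer-testis families gave MAGEB6 and MAGEB16 of 56 genes (3.57%, against 4.32%).

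In 7 families no gene was in the set, and some of these families hold short genes. Sperm and spermatid structure genes (0 of 106), cytosolic ribosomal proteins (0 of 84) and histones (0 of 82) were all read at least once. Histone genes had a median of only 468.5 exon bases and of 57 sense counts, while 8.55% of all genes of their length classes had none. Hemoglobins (0 of 9), clustered protocadherins (0 of 50) and connexins (0 of 20) were the remaining ones beside the keratins.

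Near-identical copies limit these counts. The sources used here do not say how reads that map to several places were handled. A count of 0 in DEFB103A and DEFB103B, in the LCE, KRTAP and IFNA clusters, in TAS2R30 and TAS2R46, or in XCL1 and XCL2 is uncertain. Of the 469 symbols, 362 were current in RefSeq or in a separate list of gene names, 12 matched a synonym or older symbol there and 95 matched none. Among the other genes 9.23% were unmatched, against 20.3% here.

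Genes without sense RNA were short and had few exons. The median union of annotated exons was 1017 bases, against 2575 in the other 17813 genes, and the median span on the chromosome 3289 bases against 22973. They had a median of 2 exons against 8. A single exon was annotated in 163 of them (34.8%, against 5.45% of the others), 2 or 3 exons in 140, and 4 or more in 166 (35.4%, against 81.1%). Length and sense counts are bound together, since a longer gene offers more places to be read.

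The share without sense RNA was lower in each longer class. It was 47.3% of the genes under 300 bases, 9.75% at 300 to 999 bases, 3.51% at 1000 to 1999, 1.04% at 2000 to 3999, and 0.130% (6 of 4623) at 4000 bases and over. Within a length class it also depended on exons. At 300 to 999 bases it was 20.2% with 1 exon, 11.9% with 2 or 3 and 3.86% with 4 or more, and at 1000 to 1999 bases 12.7, 4.75 and 2.29%. Olfactory receptors, 76 of the 163 genes with 1 exon, weigh on this contrast. Outside all 31 families the share was 5.77% with 1 exon, 4.54% with 2 or 3 and 1.05% with 4 or more, and the 270 genes there had a median of 1353 bases and 4 exons, against 2681 bases and 9 exons in the genes that were read.

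**Figure D2:**
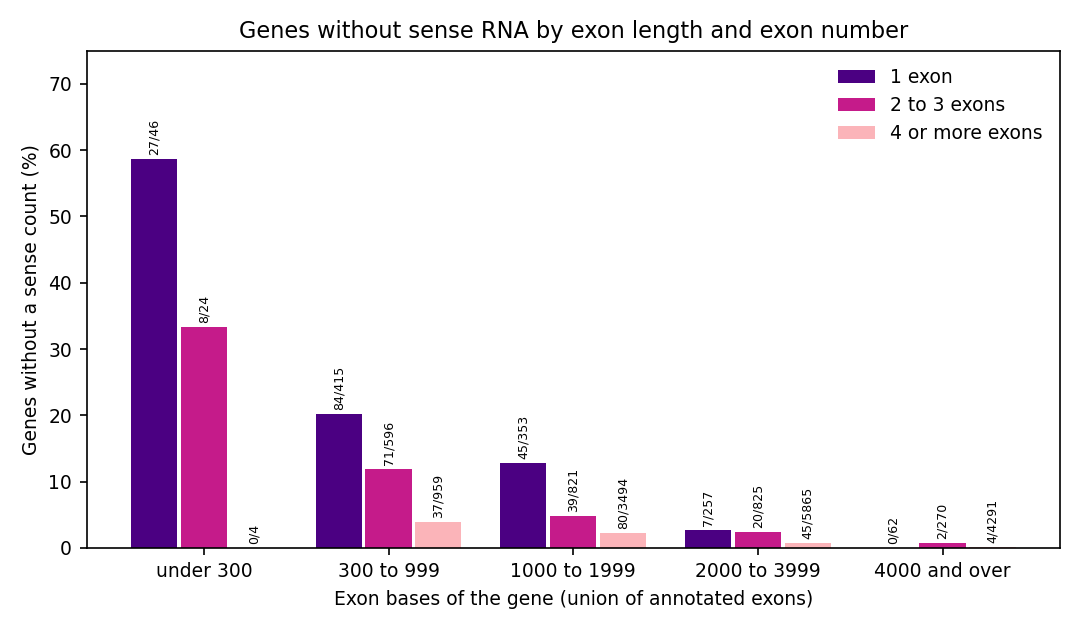
Share of genes without a sense count by exon length class (x axis, bases) and number of exons (bar colour). In every class with genes of 1 exon up to 3999 bases the bar for 1 exon stands above the others, from 58.7% under 300 bases to 2.72% at 2000 to 3999.

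The extremes show what kind of gene reached the set at each length. AVPR1A, a vasopressin receptor, was the longest with 7802 exon bases in 2 exons (chromosome 12, 61587450 to 61597501, minus strand). The retrotransposon-derived RGAG1 (5428 bases) followed, then BCL2L15 of the BCL2 family (5312) and DSG3, a desmosomal cadherin of the epidermis (5205). LRRC32, a surface protein of regulatory T cells, had 4318 bases and LRRC19 had 4026. SLC18A2, the vesicular monoamine transporter, MUM1L1, the Wnt inhibitor DKK2 and the hair cadherin DSG4 had 3581 to 3784. Most exons were annotated in XPNPEP2, an aminopeptidase, with 21, C1orf168 with 20, RXFP2 with 18, and DSG3 and DSG4 with 16 each. The shortest entries were fragments that cannot hold a whole transcript: ARHGEF35 with 14 annotated bases, SEH1L with 36, RGPD5 with 40, APCDD1 with 42 and SLC35G5 with 50. Under 300 bases lay 35 of the 469 genes, so for them the count of 0 says little about the gene.

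Many of these genes lay side by side. Along the chromosomes 162 of the 469 stood directly next to another gene of the set, in 47 runs of 2 and 19 runs of 3 or more. The longest was a run of 7 hair genes, KRTAP21-2, KRTAP20-3, KRTAP20-2, KRTAP20-1, KRTAP6-1, KRTAP22-1 and KRTAP6-2, over chromosome 7 from 15883277 to 16098970. Close to it stood 5 genes from KRTAP19-8 to KRTAP21-1, and on chromosome 6, from 50892842 to 50991057, the 5 beta-defensins DEFB133, DEFB114, DEFB113, DEFB110 and DEFB112, which also had 0 antisense counts. LCE3B, LCE3A, LCE2D and LCE2C formed a run of 4, as did OR13F1, OR13C4, OR13C3 and OR13C8. CRYGD, CRYGC and CRYGB, IFNA8, IFNA1 and IFNE, MT1F, MT1H and MT1X (metallothioneins), the gastric and epidermal lipases LIPF, LIPK and LIPN, and the arylsulfatases ARSE, ARSH and ARSF formed runs of 3.

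The chromosomes differed in share. With olfactory receptors set aside, the X chromosome had the highest, 4.88% of its genes (36 of 738), followed by chromosome 7 with 3.85% and chromosome 18 with 2.99%. The lowest were chromosome 14 with 0.456% and chromosome 19 with 0.629%. Chromosome 11 held 66 genes of the set, 37 of them olfactory receptors. On X, 33 of the 36 were outside the families, among them USP26, FATE1 and NR0B1, which are known from testis or steroid-forming tissue, and CD40LG of T cells.

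The opposite strand was not silent. Antisense counts were not used to choose the genes, and 348 of the 469 (74.2%) had at least 1 over the 7 libraries, against 95.1% of the other genes. At least 10 counts were found on 160 (34.1%) against 76.2%. The median was 3 antisense counts per gene against 38, and per kb of exon 3.09 against 14.4. Gene counts are sums over exons, so a read counted on several exons adds more than 1, and counts need not be numbers of reads. No count on either strand was found for 121 genes, among them the interleukin IL22, CXCL13, GCG, IFNE, LIPF, MAGEB6 and MAGEB16.

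Within length classes the shares were as follows. At 1000 to 1999 bases, 79.9% of the genes without sense RNA had an antisense count against 92.4% of the others, with medians of 3.5 and 25 counts. At 2000 to 3999 bases the shares were 80.6 and 96.4%, and the medians 4 and 41. Under 300 bases they were 37.1 and 69.2%. At 4000 bases and over all 6 genes (100%) had antisense counts, against 98.9%, and the medians were 62 and 70. Genes of 1 exon and 1000 to 1999 bases went the other way in share, at 91.1% without sense RNA against 88.3% of the others, with medians of 2 and 7 counts.

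Most antisense signals were seen in few animals. Of the 469 genes, 154 had antisense counts in exactly 1 library, 89 in 2, 47 in 3, 34 in 4, 11 in 5, 7 in 6 and only 6 in all 7. In Control 1 to 4 an antisense count was found on 18.6, 17.3, 15.1 and 27.9% of them, and in Maltreated animals 1 to 3 on 47.5, 9.59 and 23.5%. Maltreated 1 was highest and Maltreated 2 lowest, so the range of the Control animals lay inside that of the Maltreated. Total antisense depth ran from 583353 counts in Control 3 to 2013313 in Maltreated 1, and over the other genes the shares ran from 33.5% in Maltreated 2 to 82.8% in Maltreated 1.

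Several members show how a signal can rest on 1 animal. DKK2 had 180 of its 183 antisense counts in Control 4, all 68 on INSM2 lay in Control 4, as did the 34 on GPR35 and 61 of 64 on CYP26A1. All 38 on XPNPEP2 were in Control 3, as were the 25 on TDGF1. PTH had 79 of 85 in Maltreated 1, and DEFB103A all 26. By contrast LRRC19 was read at 35, 51, 0 and 1 in Control animals 1 to 4 and at 194, 111 and 35 in Maltreated animals 1 to 3. Scaled to antisense depth with TMM, these were 42.7, 102, 0 and 1.27 CPM against 72.7, 184 and 39.0, so the groups overlapped. LRRC19 overlaps IFT74, an opposite-strand gene with 3715 sense counts.

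The 10 genes with most antisense counts were CPB1, CPA3, F2RL1, TAS2R30, TAS2R46, SULT2B1, HTR2B, DLEU7, BCL2L15 and NFE4. Values below are counts, which compare a gene with itself between libraries and depend on depth and exon number. Where a level is given it is CPM computed on the antisense counts of the library (antisense CPM).

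CPA3 and CPB1 are neighbouring carboxypeptidase genes, the former of mast cells and the latter of the pancreas. CPA3 (chromosome 3, 62744114 to 62775652, minus strand) had 154, 11, 0 and 0 antisense counts in Control animals 1 to 4 and 1, 0 and 29678 in Maltreated animals 1 to 3. CPB1 (chromosome 3, 62780918 to 62812577, minus strand) had 154, 15, 0 and 2 in the Control and 1, 0 and 29678 in the Maltreated animals. Nearly everything came from Maltreated 3, and outside that library the Control animals held more than the Maltreated. Together these genes made up 97.4% of the 60940 antisense counts that the set had in Maltreated 3, and 79.7% of its 74881 in all libraries. Without them the set had 1584 antisense counts in Maltreated 3, between the 1075 of Maltreated 2 and the 4460 of Maltreated 1.

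In the libraries with most of these counts, every exon carried the same number. In Maltreated 3 each of the 11 exons of CPA3 and each of the 11 of CPB1 had exactly 2698 antisense counts, and in Control 1 each had exactly 14. The count on an exon of the nearby GYG1, which primes glycogen synthesis, reached 2700 in Maltreated 3. Maltreated 3 is also the library with the most leukocyte marker RNA (987 CPM), whose part in the antisense counts was not tested.

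SULT2B1 was read on the opposite strand in the Control animals. It (chromosome 19, 43442724 to 43489659, plus strand) had 54, 120, 24 and 741 antisense counts in Control animals 1 to 4 and 1, 0 and 0 in Maltreated animals 1 to 3. All 4 Control animals lay above all 3 Maltreated, and Control 4 stood far above the rest. Its level was 328 ± 458 antisense CPM (SD, n = 4) for Control against 0.166 ± 0.287 (SD, n = 3) for Maltreated animals. Equal counts on exons may be the same reads, so only the exon with most counts in each library was used for a ratio. Such exons held 157 counts in Control against 1 in Maltreated animals. Scaled to antisense depth the ratio was 214, with an exact 95% interval of 37.9 to 8510 that covers counting error only, not the spread between animals. Without Control 4 the ratio was 62.0 (10.4 to 2520). Without Maltreated 1, which had the only Maltreated count, it was at least 32.1-fold against a floor of 3 counts over the group. SULT2B1 was named for its many antisense counts, 741 of them in Control 4. A Control excess was thus partly built into its choice, and the ratio is a description and no test.

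Here too most exons carried 1 number. Of the 7 exons of SULT2B1, 6 had exactly 9 antisense counts in Control 1, exactly 20 in Control 2 and exactly 4 in Control 3, and 5 had 123 in Control 4. The same 9, 20, 4 and 123 stood on exons of genes next to it, on whichever strand these are annotated. On the minus strand, as sense counts, they were found on FAM83E (0.908 kb away, 1147 sense counts), the transcription factor gene DBP, CA11 and NTN5. On the plus strand, as antisense counts, they were found on SPHK2, the sphingosine kinase gene. In the 3 Maltreated libraries the median exon count of these 5 neighbours was 0, except for 5 on DBP in Maltreated 1. The block was not silent there. Single exons reached 133, 21 and 99 counts on FAM83E and 150, 8 and 48 on NTN5 in Maltreated animals 1 to 3, but only 3, 0 and 0 on SPHK2. In the same block RPL18 had 3726, 349 and 959 sense counts in these animals. SPACA4 had 28, 1 and 9 antisense counts, against 11, 20, 4 and 123 in Control animals 1 to 4. Leukocyte marker RNA was highest in Maltreated 3 (987 CPM), with 0 antisense counts on SULT2B1, and second in Control 4 (677 CPM), with 741. Its part in the antisense counts on SULT2B1 was not tested.

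**Figure D3:**
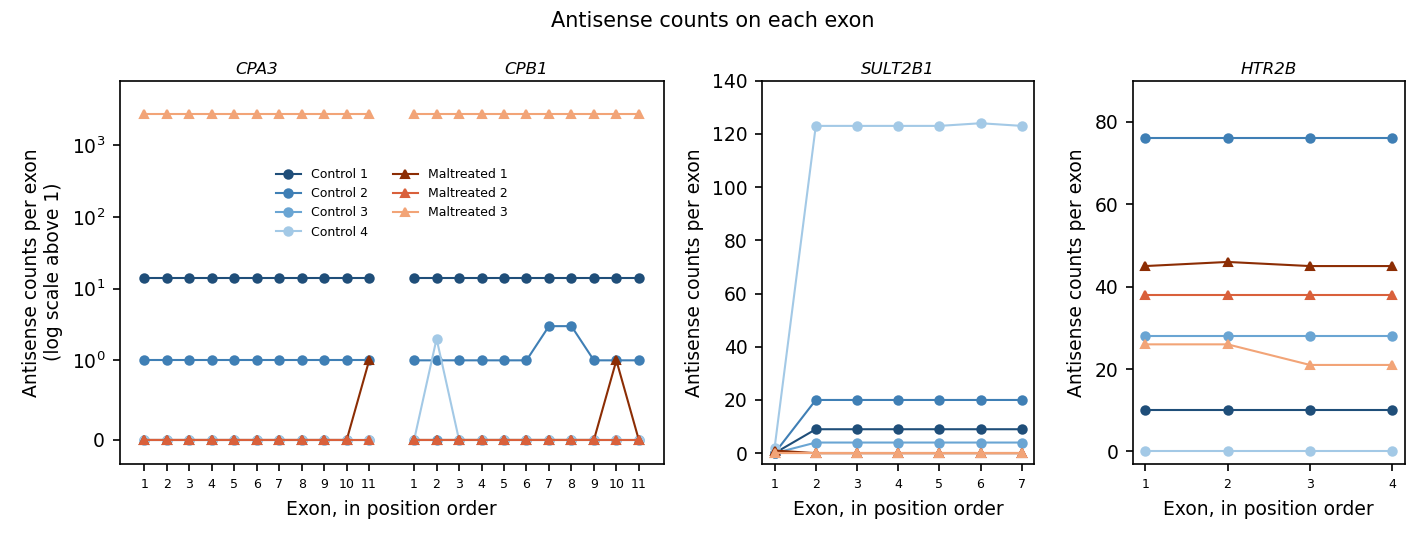
Antisense counts (y axis) on each exon (x axis, in position order) of CPA3, CPB1, SULT2B1 and HTR2B, with 1 line per library, circles for Control and triangles for Maltreated. Lines lie at 2698 on all exons of CPA3 and CPB1 in Maltreated 3 and at 123 on 5 of 7 exons of SULT2B1 in Control 4, while exon 1 of SULT2B1 is at 0 to 2 and HTR2B steps from 26 to 21 in Maltreated 3.

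F2RL1, a protease-activated receptor, had an antisense count in all 7 libraries. At chromosome 5, 73308062 to 73324355 on the plus strand, it had 234, 514, 250 and 70 in Control animals 1 to 4 and 280, 254 and 6 in Maltreated animals 1 to 3. Maltreated 3 was lowest and the groups overlapped, at 412 ± 294 antisense CPM (SD, n = 4) against 177 ± 192 (SD, n = 3). Each of its exons had 117, 257, 125, 140 and 127 counts in Control 1 to 3 and Maltreated 1 and 2, and the neighbouring S100Z and CRHBP had almost the same, 118 and 120 as medians in Control 1 and 262 and 263 in Control 2.

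TAS2R30 and TAS2R46, bitter receptors annotated on top of each other at chromosome 12 (11688441 to 11689399 and 11688472 to 11689399, plus strand), had identical values. Each had 165, 47, 120 and 131 antisense counts in Control animals 1 to 4 and 338, 57 and 102 in Maltreated animals 1 to 3, and the shorter lies wholly within the longer. All 7 libraries lay between 73.1 and 228 antisense CPM, at 171 ± 68.5 (SD, n = 4) for Control against 119 ± 43.0 (SD, n = 3) for Maltreated animals, with overlap. The bitter receptor TAS2R19, on the minus strand of the same cluster (from 11705180), had 2828 sense counts.

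HTR2B and NFE4 lie within other genes. HTR2B, a serotonin receptor, had 40, 304, 112 and 0 antisense counts in Control animals 1 to 4 and 181, 152 and 94 in Maltreated animals 1 to 3. It lies at chromosome 2b, 119614230 to 119632785 on the minus strand, inside the proteasome gene PSMD1 of the plus strand, which had 6403 sense counts. NFE4 had 93, 2, 0 and 0 in the Control and 196, 47 and 90 in the Maltreated animals, and lies inside FBXL13, a gene with 41524 sense counts on the other strand. DLEU7 had 104, 41, 18 and 0 against 322, 24 and 75, all of them on 1 of its 2 exons. BCL2L15 had 66, 24, 0 and 32 against 219, 55 and 83. In HTR2B, DLEU7 and NFE4 the Control animals covered both 0 and values within the Maltreated range or above it.

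**Figure D4:**
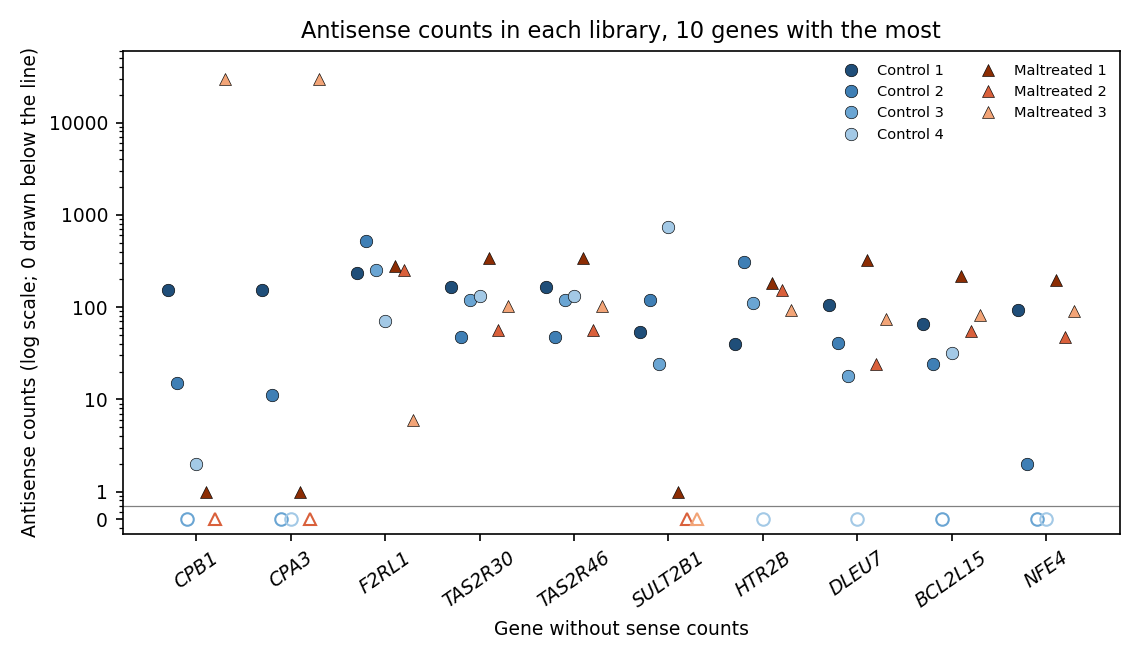
Antisense counts (y axis, log scale, 0 drawn below the line) of the 10 genes with most of them, 1 point per library, circles for Control and triangles for Maltreated. Maltreated 3 stands alone at 29678 for CPA3 and CPB1, and SULT2B1 is the gene whose 4 Control points, 24 to 741, all lie above the Maltreated ones.

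Equal counts on adjoining exons were common beyond these loci. Whether equal counts stand for the same reads, and what gave them, was not tested, as the reads themselves were not examined. Over the 227 genes of the set with 3 or more exons, 94.2% of the antisense counts lay in runs of exons that shared 1 count, and 51.8% without CPA3 and CPB1. CRYGB, CRYGC and CRYGD each had 21 antisense counts in Control 1. With the count of the lower adjoining exon taken off each exon, 61.6% of the 469 genes still had an antisense count.

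Few of the genes with antisense RNA lay by an annotated gene on that strand. Of the 160 genes with at least 10 antisense counts, 6 overlapped an opposite-strand gene with at least 10 sense counts, 21 more had such a gene within 10 kb, and 133 (83.1%) had neither. Among the other genes with at least 10 antisense counts, 60.3% had neither. RXFP2 had no annotated gene with sense RNA within 10 kb. It showed 164, 0, 0 and 0 antisense counts in Control animals 1 to 4 and 168, 0 and 72 in Maltreated animals 1 to 3. Its 18 distinct exons are listed in 35 entries, so these sums include repeated entries. SPINK7 and SPINK13, both near the same place on chromosome 5, had 313 and 110 antisense counts over the libraries, with 0 in Control 4 and Maltreated 2 for both.

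Genes without sense RNA stood in sparse surroundings. A neighbouring gene lay within 10 kb on either side for 30.3% of them, against 51.9% of the other genes, and the nearest gene was a median of 17.3 kb away against 9.27 kb. A neighbour within 10 kb that had at least 10 sense counts was found for 80 (17.1%) against 49.3%. On the same strand the shares were 8.32 and 24.2%, and on the opposite strand 9.38 and 31.3%. An annotated gene on the opposite strand overlapped 14 (2.99%) against 7.17%, and one on the same strand 9.

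The rule itself fixes part of this, since genes of the set often neighbour each other and then have 0 sense counts. Of the 142 with a neighbour within 10 kb, 33 (23.2%) had only other genes of the set there, against 0.898% of the other genes. Where a neighbour outside the set lay within 10 kb, a gene with at least 10 sense counts was found for 80 of 109 (73.4%), against 95.9% of the other genes. Olfactory receptors, which sit in clusters of their own, behaved otherwise: such a neighbour stood by 6 of the 77 without sense RNA (7.79%) and by 17 of the 205 that were read (8.29%). Outside the families the shares were 22.6 and 50.4%.

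**Figure D5:**
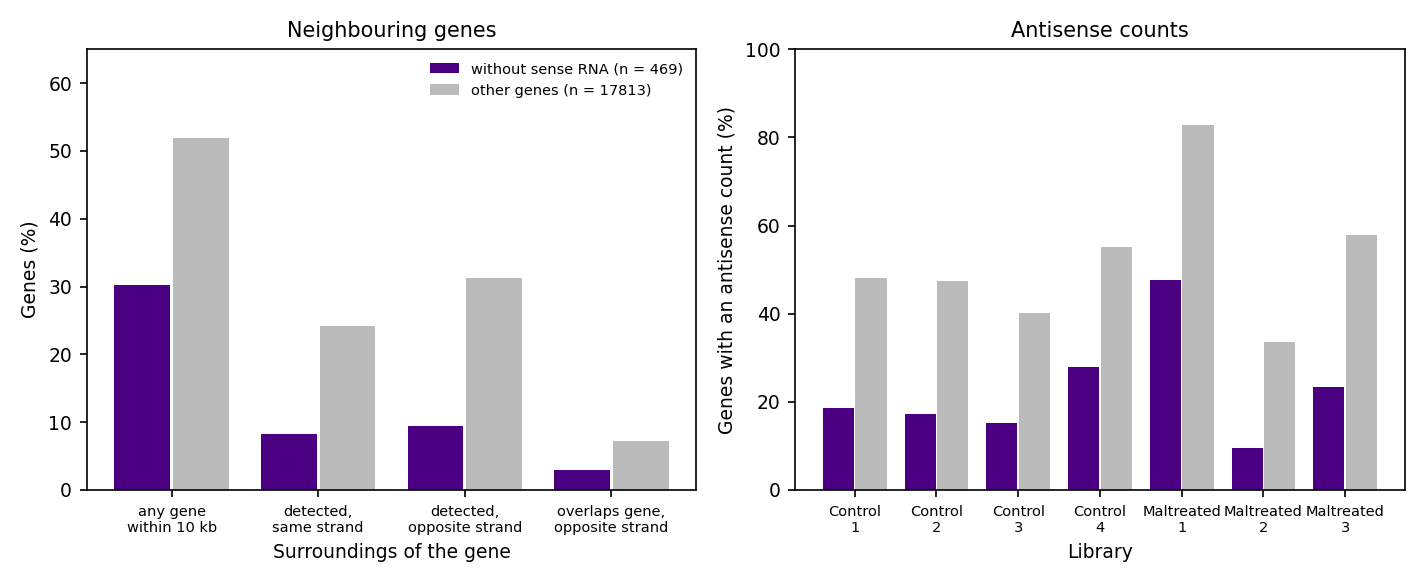
Left, percent of genes with a neighbour within 10 kb, or an overlapping gene, by kind (x axis; detected means at least 10 sense counts), for the 469 genes without sense RNA and for all other genes. Right, percent of genes with an antisense count in each library; the 469 genes lie between 9.59% in Maltreated 2 and 47.5% in Maltreated 1, below the other genes in all 7 libraries.

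Some of these genes lay beside strongly read ones. SLC18A2 (chromosome 10, 112959044 to 112996978) stood 3.70 kb from PDZD8, an opposite-strand gene with 18508 sense counts, and had 0 sense and 9 antisense counts. GLUD2, a glutamate dehydrogenase, stood 9.15 kb from PAK3 (10083 sense counts). ABCG5, a sterol transporter, stood 2.39 kb from DYNC2LI1, a dynein chain of cilia (7292), and had 78 antisense counts, 25 in Control 3, 40 in Maltreated 1 and 13 in Maltreated 3. INSM2 stood 2.37 kb from RALGAPA1 (6504). These 4 neighbours were on the opposite strand, whereas DHRS13 stood 2.34 kb from PHF12 (3870 sense counts) on its own strand. CLDN25 lay 5.09 kb from ZW10 (2964), a gene of the mitotic checkpoint, and HOXA6 1.70 kb from HOXA5 (121).

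The Maltreated and Control animals were compared on the antisense strand, since sense counts of this set are 0 in both. The share of the 469 genes with an antisense count was 19.7 ± 5.65% (SD, n = 4) among Control against 26.9 ± 19.2% (SD, n = 3) among Maltreated animals. The difference of 7.14 percentage points was smaller than the spread of the Maltreated animals (two-sided exact permutation test over 35 splits, p = 0.629, adjusted p over 3 measures = 0.914, smallest possible p = 0.0286). At the common depth of 583353 antisense counts the shares were 19.1 ± 5.11% (SD, n = 4) and 20.4 ± 11.3% (SD, n = 3), with an exact permutation p of 0.914. Without Maltreated 1, the deepest library, the difference was -3.20 points. For genes with at least 10 counts in a library the shares were 6.29 ± 3.12% (SD, n = 4) and 8.17 ± 5.45% (SD, n = 3, exact permutation p = 0.571).

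Gene by gene no antisense difference passed the test. In edgeR's quasi-likelihood test with Benjamini-Hochberg adjustment over 4382 genes with enough antisense counts, 0 were called (percent called 0), with 0.713 the lowest adjusted p. An unadjusted p under 0.05 was found for 110 (2.51%). Only 19 of the 469 genes passed the filter on low counts, 0 of them were called, 10 had a higher and 9 a lower value in the Maltreated animals, and their median log2 fold change was 0.40 against -0.12 over all genes tested. The members that passed the filter are those with most antisense counts and do not stand for the set. The p-values measure the spread between these 7 animals, with 5 residual degrees of freedom and a biological coefficient of variation of 1.38.

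SULT2B1 had the smallest unadjusted p of the 19. Its log2 fold change, Maltreated against Control, was -9.98 ± 1.99 (SE), with an adjusted p of 0.713 in edgeR, and -10.41 with an adjusted p of 5.27e-05 in DESeq2. It passed the filter on low counts only through the Control animals, where it is high, so a difference was built into its being tested, and the fitted fold rests on 1 Maltreated count. DESeq2 called 16 of 3718 genes (0.43%), and SULT2B1 was the 1 gene of the set among them. Without a filter on low counts edgeR called 24 of 17280 genes (0.139%), with CPA3, CPB1 and SULT2B1 as the 3 genes of the set. CPB1 (7.64 ± 2.93, SE) and CPA3 (7.70 ± 3.06, SE) also had an unadjusted p under 0.05, and in both edgeR's adjusted p was 0.997. They passed the filter with most of their counts in Maltreated 3, but not when Control 1 or Control 2 was left out. Their direction came from Maltreated 3, and without it the log2 fold changes were -7.21 and -7.15. The groups did not overlap in 191 of the 4382 genes (4.36%), and in 2 of the 19, SULT2B1 and BCL2L15. BCL2L15 overlaps when levels are not scaled by TMM, at 0 to 91.2 antisense CPM in Control and 83.2 to 109 in Maltreated animals.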

How the data were processed

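The tools named, per the submitters' processing notes, are bedtools, STAR and featureCounts, and their roles are not stated. Aligner settings, the handling of reads with several positions, the genome build and whether the kit marks strand are not given in the sources used here. Coordinates are those of the deposited files. Per the file headers, the deposited table of the whole series holds for each gene and animal the count of sense and of antisense reads and the fraction of the gene covered. The exon files hold the deposited count and covered fraction per exon, as the authors computed them. Gene counts equalled the sums over exon entries for all 18282 genes, both strands and 7 libraries. A read counted on several exons, or on a repeated entry, would add to the sum each time. RTN3 and ZC3HAV1, listed on both strands, were left out. There was no other sample's column.

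The 469 genes, the gene families and the tests were chosen with earlier results of these data known. Families were matched by symbol patterns. Exon length is the union of a gene's exons. The share against which a family is set is the mean, over its genes, of the share without sense RNA in their length class, whatever the exon number. A neighbour is the nearest gene on either side that does not overlap, within 10 kb. Named genes are the 10 with most antisense counts, the 10 longest, the 5 shortest, up to 4 longest per family, the 5 with the most strongly read neighbour, the 5 with most exons and the 5 longest with 1 sense count. Genes named for a run, a chromosome, a single library or a ligand and receptor pair, and genes of the loci around them, were chosen after their values were seen.

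Antisense counts over the whole table went into edgeR 4.0.16 (R 4.3.3) (TMM, filterByExpr with a minimum count of 10 and minimum total of 15, quasi-likelihood F test on the group, Benjamini-Hochberg over all genes tested, threshold 0.05). Shares per library were compared by two-sided exact permutation over 35 splits, and intervals of ratios are exact binomial at 95%. The SE given with an edgeR log2 fold change is its absolute value divided by the square root of F, not an error estimated by the model. The edgeR step was also run on simulated counts, but how many changes it recovered there is not reported here. Alternatives were DESeq2 1.42.0, its size factors in edgeR, no filter, library sizes from all counts, a replicate block, other thresholds and windows, and leaving out each library. Distinct exons, exon counts above the lower neighbour, a minimum of 300 exon bases and leaving out Control 4 and Maltreated 3 together were added after seeing the data. No genome or sequence table was used here, so no sequence is shown.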

Additional observations from a re-analysis of the deposited data

Results flagged for a closer look

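In 4 of the 10 genes with most antisense counts, 1 Control animal stood apart from the other Control animals by Dixon's ratio, the gap to the nearest animal over the whole range, whose 95% critical value for 4 samples was exceeded. The ratio was 0.976 for NFE4, 0.920 for CPA3 and 0.890 for CPB1, in each case with Control 1 highest, and 0.850 for SULT2B1 with Control 4 highest. The rate of about 1 in 20 groups flagged by chance does not apply here. These genes were picked for high antisense counts, to which 1 high library adds. CPA3 and CPB1 also share the same counts per exon in Control 1. Among the Maltreated animals both genes had 30079 antisense CPM in Maltreated 3 against 0 to 0.497 in the others. In antisense CPM, NFE4 had 128 in Control 1 against 0 to 3.11 in the other Control animals, CPA3 had 213 against 0 to 17.1, CPB1 had 213 against 0 to 23.3, and SULT2B1 had 1009 in Control 4 against 41.1 to 187.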

How the results depend on the processing

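The number of genes without sense RNA did not follow depth alone. Leaving out 1 library gave 502 to 969, the latter without Maltreated 1, the deepest. Without Control 4, the shallowest, it was 621, and without the deeper Control 1 it was 504. No count on either strand was found for 121 genes. The median exon length of the genes without sense RNA was 1024.5 to 1210 bases with 1 library left out. The share with an antisense count (74.2%) was 34.1% at 10 or more counts, 61.6% on exon counts above the lower neighbour, and 60.6 to 72.7% with 1 library left out. The share near a read gene (17.1%) was 49.9% within 50 kb (80.3% of other genes), 23.2% when 1 sense count sufficed (51.4% of other genes), and 15.4 to 17.1% with 1 library left out. The Maltreated minus Control share of genes with antisense RNA ran from -3.20 to 15.8 points with 1 library left out, negative without Maltreated 1. The antisense test called 0 genes with each library left out, 24 of 17280 (0.139%) without a filter on low counts, of which 3 among the 348 of the set tested (CPA3, CPB1 and SULT2B1), and 16 with DESeq2. The log2 fold change of CPA3 (7.70) ran from -7.15 to 8.32 and that of CPB1 (7.64) from -7.21 to 8.25 with 1 library left out, negative without Maltreated 3. They were -7.51 and -7.56 without Control 4 and Maltreated 3. SULT2B1 stayed between -10.8 and -8.47 with 1 library left out. Where no value is given that shows it, the cause was not tested.

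Same-numbered animals did not deviate together (correlations 0.055, 0.036 and -0.010), so the numbers were not taken to pair them. With a replicate block edgeR called 0 genes (95 at an unadjusted p under 0.05), and CPA3 and CPB1 were at -4.65 and -4.87. Short genes, 35 of them under 300 bases, and Maltreated 1, which alone removed 500 genes from the set, limit what a count of 0 shows.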

Other observations

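Groups put together after the values were seen extend the picture, and their shares support nothing on their own. Metallothioneins, small metal-binding proteins, had 6 of 11 genes without sense RNA (54.5%, against 13.2% for genes of their length classes). These were MT1M, MT1F, MT1X, MT1G, MT1H and MT4, all with 3 exons, and their near-identical sequences make the counts uncertain. MT1H had 6, 0, 0 and 94 antisense counts in Control animals 1 to 4 and 12, 0 and 0 in Maltreated animals 1 to 3, and MT1F had 6, 0, 0 and 48 against 12, 0 and 0. MAS-related and melanocortin receptors had 7 of 15 (46.7%, against 6.35%), among them MC3R and MC5R. Plasma proteins made by the liver had 11 of 51 (21.6%, against 3.87%), including AFP, APOC3, ORM1 and RBP4.

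Genes of neighbouring reproductive tissues were in the set too. Epididymal secretory genes, which act on sperm after they leave the testis, had 6 of 26 without sense RNA (23.1%, against 6.01% for genes of their length classes). They were GPX5, LCN9, LCN10, CST11, PATE3 and SPINT4. Genes of the oocyte and of pluripotent cells had 4 of 25 (16%, against 3.47%): BMP15, KHDC3L, DPPA5 and TDGF1. Monoamine and acetylcholine transmission had 5 of 41 (12.2%, against 1.74%). These were the enzyme TH, the vesicular transporters SLC18A2 and SLC18A3 and the serotonin receptors HTR1A and HTR2B. Desmosomal cadherins and corneodesmosin had 3 of 8 (37.5%, against 0.356%), DSG3, DSG4 and CDSN, which are long for the set at 3581 bases in the median. The PRAME family had 2 of 7 (28.6%, against 2.81%) and cystatins 2 of 9 (22.2%, against 9.05%).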
